A study of Mus musculus with 10 samples.

Results

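The S100 genes encode a family of small calcium-binding proteins. The 10 genes followed here, S100a1, S100a4, S100a6, S100a8, S100a9, S100a10, S100a11, S100a13, S100a16 and S100b, were taken by gene symbol from the 19942 distinct symbols on the array, and each had 1 probe. Their mRNA was measured in the left ventricle of male C57BL/6J mice, operated at 8 weeks of age, after transverse aortic banding (TAB), a constriction of the aortic arch that puts the left ventricle under pressure overload, or after a sham operation without banding. The hearts were taken on days 3, 5, 7, 14 and 28, with 1 TAB and 1 sham sample a day and 10 samples in all, and the mice differed in no allele or drug given in the labels. How many mice gave each RNA sample is not stated in the sources used here. Each day held 1 sample per operation, so the 5 days served as the replicates, and p-values measure the spread between these samples, which mixes biological, technical and day-to-day differences.

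S100 proteins form dimers, bind calcium through EF-hand loops and, once calcium is bound, attach to target proteins and change their activity. Some act inside the cell, on calcium pumps and channels, annexins or the cytoskeleton, and some are released and act on receptors of innate immunity. In heart muscle S100a1 is the member best known from cardiomyocytes, where it favours calcium uptake and release by the sarcoplasmic reticulum; S100a8 and S100a9 are abundant in neutrophils and monocytes, and S100a4 and S100a6 are known from fibroblasts, macrophages and growing cells.

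All values below are normalized intensities, which are brightness values in arbitrary units after the arrays were brought to a common distribution, or log2 ratios of them, TAB over sham. A level can be compared between samples for 1 probe, but not between probes. A spot was taken as found, that is, above background, where the deposited flag did not mark it as missing; 40.2% to 47.3% of spots were not found on an array. The probes of S100a1, S100a4, S100a6, S100a10, S100a11, S100a13 and S100a16 were found on all 10 arrays. S100a9 was found on 5 TAB and 4 sham arrays, S100b on 4 TAB and 2 sham arrays, and S100a8 on no array. The S100a11 probe is annotated to S100a11 and to Gm12854 and Gm5068, both listed as pseudogenes, so its signal cannot be given to S100a11 alone. As a check of the tissue label, 10 of 10 cardiomyocyte markers were found on all 10 arrays.

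The stretches just upstream of the gene starts are shown for S100 genes that were higher after TAB and, beside them, for S100a1, to set out which letters precede each start. They come from RefSeq on build GRCm38.p6, in which 9 of the 10 members had an entry and S100a10 had none. The last 150 bases before the start are printed 5′ to 3′ for the 3 members with the highest average folds among those found on all arrays, S100a4, S100a11 and S100a6, and for the neighbours S100a1 and S100a13. Capitals mark 3 motifs, searched on both strands over 250 bases before the start: the TATA box, spelled TATAAA, the AP-1 site, spelled TGANTCA, and the GC box, spelled GGGCGG. No match of 1 motif overlapped a match of another in the stretches shown.
S100a4 (chr3:90603620-90603769, plus strand): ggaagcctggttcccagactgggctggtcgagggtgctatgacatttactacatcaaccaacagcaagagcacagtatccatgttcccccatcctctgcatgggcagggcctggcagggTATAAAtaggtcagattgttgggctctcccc
S100a11 (chr3:93520346-93520495, plus strand): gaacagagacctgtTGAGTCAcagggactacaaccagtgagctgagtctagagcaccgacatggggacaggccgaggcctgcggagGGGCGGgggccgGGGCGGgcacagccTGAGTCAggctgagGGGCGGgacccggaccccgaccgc
S100a6 (chr3:90612744-90612893, plus strand): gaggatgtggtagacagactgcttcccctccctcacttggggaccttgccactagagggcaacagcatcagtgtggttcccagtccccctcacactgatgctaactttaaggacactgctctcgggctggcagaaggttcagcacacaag
S100a1 (chr3:90514331-90514480, minus strand): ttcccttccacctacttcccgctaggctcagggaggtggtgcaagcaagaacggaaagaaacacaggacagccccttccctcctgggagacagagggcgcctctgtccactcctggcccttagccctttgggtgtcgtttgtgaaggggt
S100a13 (chr3:90514285-90514434, plus strand): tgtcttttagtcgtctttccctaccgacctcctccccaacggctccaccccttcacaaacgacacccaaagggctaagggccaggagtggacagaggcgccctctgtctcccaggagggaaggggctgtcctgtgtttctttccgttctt
S100a4 held a TATA box that begins 31 bases before its start. S100a11 held no TATA box but AP-1 letters at 136 and 38 bases and GC boxes at 64, 52 and 24 bases before its start. S100a6 held none of the 3 motifs. S100a1 and S100a13 lie head to head on opposite strands, so that the stretches shown for them share 104 bases, and neither held a motif. Among 32851 such windows of the annotation, 12.37% held a TATA box, 6.749% AP-1 letters and 32.74% a GC box. These matches describe letters and were not tested as sites of binding.

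TAB samples had more mRNA of most S100 genes that the arrays could measure. Of the 7 members found on all arrays, 5 were higher in TAB at an adjusted p under 0.05 and 0 were lower: S100a4, S100a11, S100a6, S100a10 and S100a13, by 2.87-, 2.73-, 2.06-, 1.90- and 1.36-fold on average over the 5 days. The test was limma with day as a block, adjusted by Benjamini-Hochberg over all 16113 genes; it called 9.19% of all genes higher and 7.87% lower, and 10.5% of the 10535 genes found on all arrays higher. The same 5 members had 5 TAB values above all 5 sham values, a lack of overlap with TAB higher that 12.5% of the genes found on all arrays and 9.99% of all genes showed. Over the 10 members the median log2 TAB effect was 0.74, beside -0.03 over all genes, but the members had been chosen with earlier results of these data known, and S100a8 enters that median without being found on any array. The calls needed most of the days. With day 3, day 5 or day 7 left out, 0 of the 7 members passed the adjusted threshold (limma; 5, 5 and 6 members were higher at an unadjusted p under 0.05), with day 14 left out S100a6 and S100a11 passed, and with day 28 left out S100a4, S100a6, S100a10 and S100a11 passed. The calls over all genes, 2749 with all days, were 29, 55, 25, 835 and 2602 in the same fits. The log2 TAB effects with a day left out stayed between 1.26 and 1.74 for S100a4, 1.26 and 1.62 for S100a11, 0.98 and 1.12 for S100a6, 0.77 and 1.09 for S100a10, and 0.39 and 0.49 for S100a13. With probes below 1 set to 1 in place of being removed, S100a6 alone of the 10 passed, and S100a4, S100a8, S100a11, S100a10 and S100a13 had adjusted p = 0.0544, 0.0503, 0.0503, 0.0619 and 0.0779 (limma). The tissue held many cell types, and more cells of a type and more RNA per cell cannot be told apart.

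**Figure D1:**
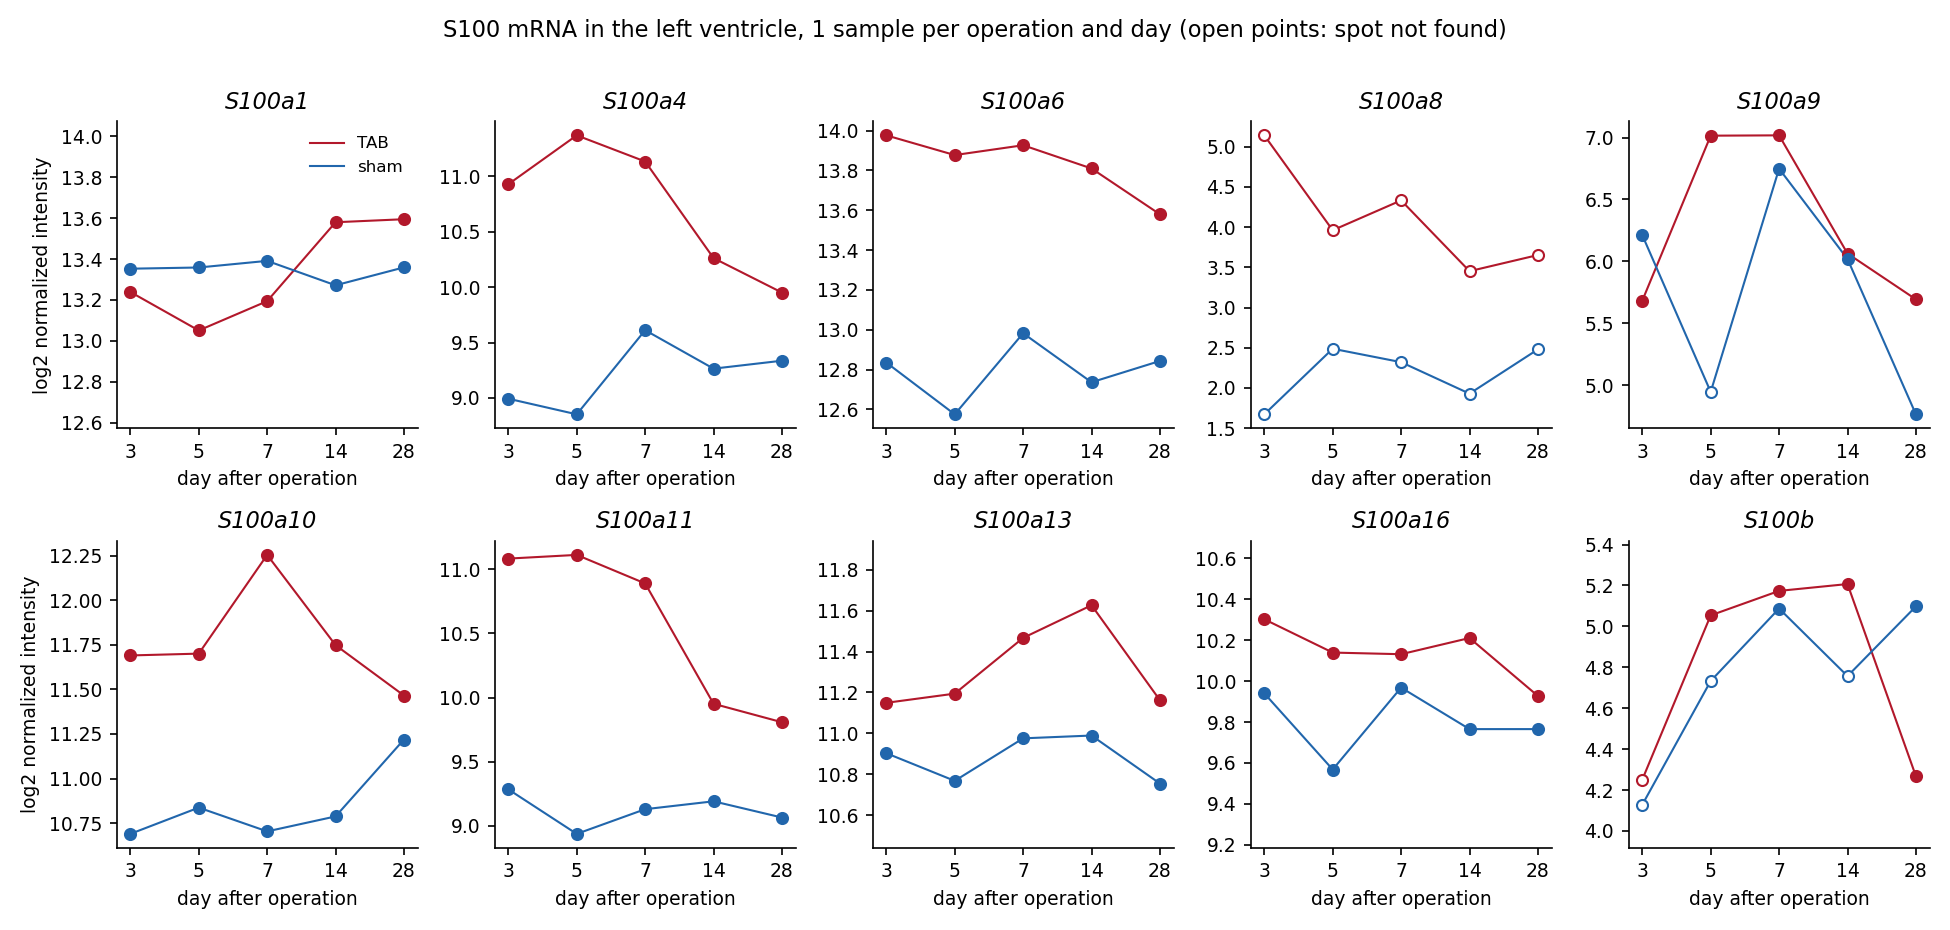
Log2 normalized intensity (arbitrary units) of the 10 S100 members on each day after the operation, 1 TAB sample (red) and 1 sham sample (blue) a day; open points are spots not found. S100a4, S100a6, S100a10, S100a11 and S100a13 have all 5 TAB points above all 5 sham points, the lines of S100a1 cross after day 7, and S100a8 has open points only; each panel has its own vertical range, which does not start at 0.

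S100a4, also called metastasin, binds non-muscle myosin and is known from motile fibroblasts and macrophages. Its normalized intensity in the TAB samples of days 3, 5, 7, 14 and 28 was 1951, 2649, 2249, 1228 and 990.0, and in the sham samples of the same days 509.5, 462, 782, 615 and 646. Every TAB sample lay above every sham sample, and the TAB samples of days 14 and 28 were the lowest of the 5. The average log2 TAB effect was 1.52 (SE 0.29, n = 5 days, adjusted p = 0.0260, limma), the largest among the members found on all arrays. Single-day log2 ratios ran from 2.52 on day 5, a 5.73-fold difference, to 0.62 on day 28.

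S100a6, or calcyclin, is known from proliferating and fibroblast-like cells. It read 16119, 15049, 15573, 14363 and 12244 in the TAB samples of days 3, 5, 7, 14 and 28, beside 7307, 6102, 8092, 6823 and 7348 in the sham samples. All TAB values exceeded the highest sham value, with day 28 the lowest of the TAB values. The log2 TAB effect of 1.04 (SE 0.12, n = 5 days, adjusted p = 0.0129, limma) varied less over the days than that of S100a4, between 0.74 on day 28 and 1.30 on day 5.

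S100a10 and S100a11 are the members that pair with annexins: S100a10, or p11, binds annexin A2 and helps carry channels to the cell surface, where it also binds plasminogen, and S100a11 binds annexin A1. S100a10 read 3304, 3327, 4883, 3439 and 2827 in the TAB samples of days 3, 5, 7, 14 and 28, and 1652, 1829, 1668, 1768 and 2383 in the sham samples. Its groups did not overlap, but on day 28 they came close, because the sham value was the highest of its group and the TAB value the lowest of its own. The log2 TAB effect was 0.92 (SE 0.19, n = 5 days, adjusted p = 0.0306, limma), with single days between 0.25 on day 28 and 1.55 on day 7.

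The S100a11 probe read 2169, 2212, 1896, 990.0 and 896 in the TAB samples of days 3, 5, 7, 14 and 28, beside 624, 490.3, 560.2, 585 and 536 in the sham samples. The sham values stayed within a log2 range of 0.35, and the TAB samples of days 3 to 7 stood well above those of days 14 and 28. The log2 TAB effect was 1.45 (SE 0.25, n = 5 days, adjusted p = 0.0233, limma), with single days from 0.74 on day 28 to 2.17 on day 5, the latter a 4.51-fold difference.

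S100a13, which takes part in the release of fibroblast growth factor 1 and interleukin 1 alpha, proteins that leave cells without a signal peptide, differed by less but on every day. Its TAB values were 2271, 2343, 2829.9, 3161 and 2291 on days 3, 5, 7, 14 and 28, and its sham values 1915, 1744, 2014, 2033 and 1728. The lowest TAB value was still above the highest sham value, and the TAB value of day 14 was the highest. The log2 TAB effect was 0.44 (SE 0.11, n = 5 days, adjusted p = 0.0400, limma), with single days between 0.25 and 0.64. It was also the call most easily lost, since it failed the threshold with any 1 of the 5 days left out.

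S100a16, a broadly expressed member, read 1263, 1128, 1122, 1185 and 974 in the TAB samples of days 3, 5, 7, 14 and 28, and 982, 759, 1002, 870.2 and 870.3 in the sham samples. The TAB value was higher on 5 of 5 days, and 4 of the 5 TAB values lay above the sham range, the exception being day 28. The log2 TAB effect of 0.34 (SE 0.11, n = 5 days) did not pass the test (adjusted p = 0.0841, limma), although it did under 6 of 11 other settings of the analysis, among them median scaling only (log2 effect 0.45, adjusted p = 0.0464).

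S100a1, the member of cardiomyocytes, had no average difference that the test could detect. It read 9668, 8485, 9372, 12244 and 12371 in the TAB samples of days 3, 5, 7, 14 and 28, beside 10461, 10503, 10742, 9889 and 10508 in the sham samples. The sham values spanned a log2 range of 0.12, the smallest among the 10 members, with a mean of 10421 ± 317 (SD, n = 5), whereas the TAB values had a mean of 10428 ± 1771 (SD, n = 5). The TAB samples of days 3, 5 and 7 lay below the whole sham range and those of days 14 and 28 above it. The average log2 TAB effect was -0.01 (SE 0.13, 95% interval -0.34 to 0.31, adjusted p = 0.951, limma), and its sign turned when median scaling replaced quantile normalization and when day 3, 5 or 7 was left out.

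Of S100a8 and S100a9, whose dimer is called calprotectin and is stored in neutrophils and monocytes, S100a8 was at the lower end of what these arrays measure. S100a9 was found on 9 arrays, with raw intensities of 38 to 134 in TAB and 27 to 94 in sham, beside array medians of 34 to 57. The S100a8 probe had raw intensities of 21, 16, 19, 10 and 15 in the TAB samples of days 3, 5, 7, 14 and 28, and of 4, 5, 4, 4 and 7 in the sham samples. The TAB values lay above the sham values, but all 10 were below the 1st percentile of found spots on any array, 25 to 27, so no fold is given for S100a8 and its differences were not read as expression. S100a9 read 51.3, 129.4, 129.6, 66.9 and 51.7 in the TAB samples and 74.1, 30.8, 107.5, 64.9 and 27.2 in the sham samples, where the day 5 spot was not found. Its groups overlapped, and the log2 TAB effect was 0.56 (SE 0.37, n = 5 days, adjusted p = 0.328, limma), or 0.18 without day 5 and 0.83 without day 3. The sham spot of day 5 that was not found has only a bound, so no ratio is given for that day, and the average that includes it is uncertain to that extent. On day 3 the log2 ratio was -0.53.

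S100b, known from Schwann cells, adipocytes and nervous tissue, read 19.0, 33.2, 36.1, 36.9 and 19.3 in the TAB samples of days 3, 5, 7, 14 and 28, and 17.5, 26.6, 34.0, 27 and 34.2 in the sham samples. Day 3 was not found in either group, nor were the sham spots of days 5 and 14. The groups overlapped over most of their range, and the log2 TAB effect was 0.03 (SE 0.20, adjusted p = 0.935, limma). Spots that were not found have only a bound, so this average is uncertain, and ratios of single days are given only where both spots were found, 0.09 on day 7 and -0.83 on day 28 on the log2 scale.

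**Figure D2:**
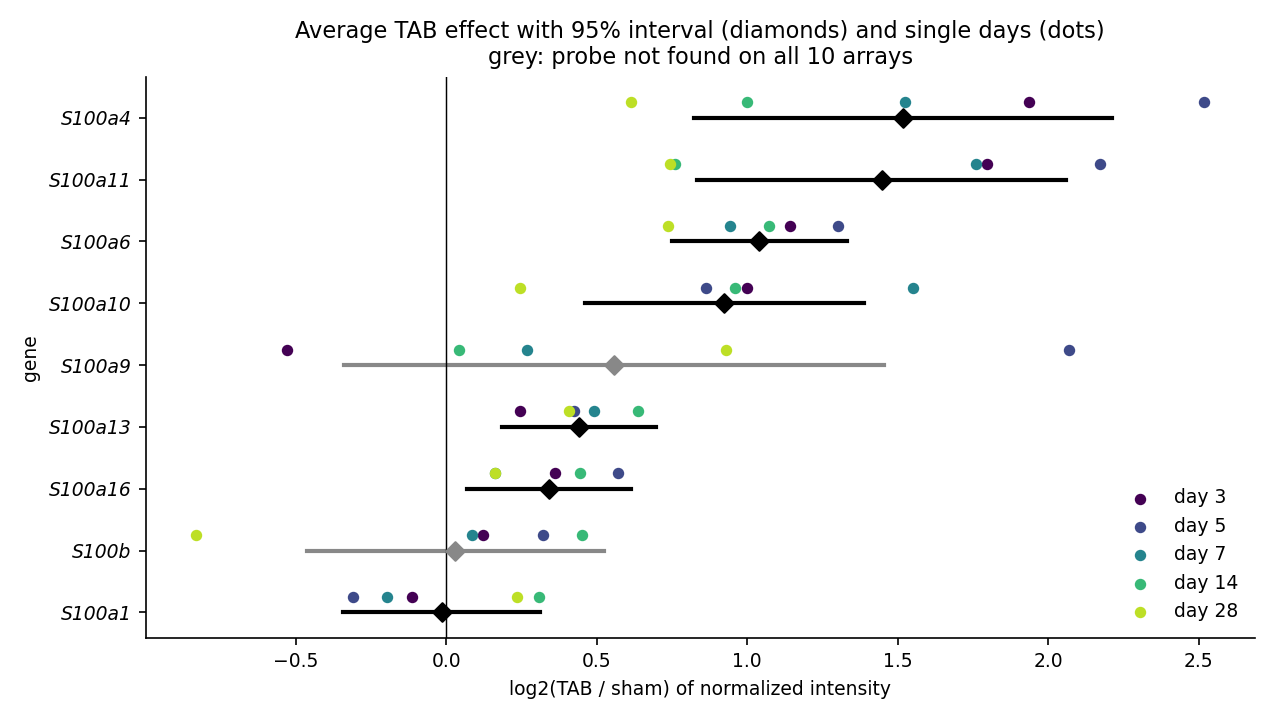
Log2 ratio of normalized intensity, TAB over sham, for the 9 S100 members found on at least 1 array. Diamonds are averages over the 5 days with their 95% intervals from the limma fit, dots are single days (1 sample per operation), and grey marks S100a9 and S100b, whose probes were not found on all 10 arrays. The dots of S100a9 on day 5 and of S100b on days 3, 5 and 14 rest on spots not found and are not measured ratios. The intervals of S100a4, S100a11, S100a6, S100a10, S100a13 and S100a16 lie above 0, before any adjustment for the number of genes tested.

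The log2 ratio to the sham sample of the same day was highest on day 5 for S100a4, S100a6, S100a11 and S100a16, on day 7 for S100a10 and on day 14 for S100a1 and S100a13. By the rule of the study's methods, single-day calls of differential expression (DE) were made past 2 SDs of the ratios of all genes, which came to 1.78, 1.93, 1.75, 1.48 and 1.38 on the log2 scale for the 5 days in turn. Among the 7 members found on all arrays, S100a4 and S100a11 were called upward on days 3 and 5 and S100a11 also on day 7, which makes 5 calls upward and 0 downward. The background was 3.1%, 4.09%, 4.08%, 3.39% and 3.41% of all genes called upward on days 3, 5, 7, 14 and 28. S100a6, S100a10, S100a13 and S100a16 were called on no day. There was no test on a single day, with 1 sample per operation.

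Whether the early days (3, 5 and 7) differed from the late days (14 and 28) in the TAB effect was tested as an interaction in the same fit. S100a4 had an average log2 TAB effect of 1.99 on the 3 early days and 0.81 on the 2 late days, a difference of 1.19 (SE 0.36). S100a11 had 1.91 and 0.75, a difference of 1.16 (SE 0.22). S100a1 went the other way, from -0.21 to 0.27, a difference of -0.48 (SE 0.19). Adjusted over all genes, none of these passed (limma, adjusted p = 0.412, 0.379 and 0.455; unadjusted p = 0.0205, 0.00333 and 0.0519). The fit called 0 genes of 16113, or 0%, although 1766 had an unadjusted p under 0.05 and the lowest adjusted p was 0.191. S100a6, S100a10, S100a13 and S100a16 had early-minus-late differences of 0.22, 0.53, -0.13 and 0.06, none of which passed the test.

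Across the 10 samples, the members higher in TAB were correlated to unlike degrees. S100a4 and S100a11 had a Pearson r of 0.965 between their log2 values, S100a4 and S100a6 of 0.941, and S100a6 and S100a10 of 0.902. S100a13 was less like the others, with r of 0.652 with S100a11, 0.712 with S100a4, 0.783 with S100a10 and 0.827 with S100a6. S100a1 had r between -0.505 with S100a11 and 0.100 with S100a13. These are descriptions over 10 samples that share the split into TAB and sham, a split that by itself gives correlations between genes that differ between the groups.

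Among the 10534 other genes found on all arrays, those whose log2 values over the 10 samples were most like a member's, by Pearson r, were named by a fixed rule of 3 per member. For S100a4 these were Bop1 (r = 0.995), Slc10a3 (0.993) and Slc25a24 (0.989). For S100a11 they were Akr1b8 (0.998), AF251705 (0.996) and Cd84 (0.995), Cd84 being a receptor of leukocytes. For S100a6 they were a probe shared by LOC100503168, Eef1a1 and Gm6548 (0.984), Emp1 (0.983) and Fstl1 (0.983), the last a secreted glycoprotein of mesenchymal cells. S100a10 was most like Uchl1 (0.979), F13a1 (0.965) and Sytl4 (0.965). S100a13 was most like Ism1 (0.973), Scarf2 (0.953) and Col8a2 (0.952), the last a collagen chain. S100a16 was most like Leprotl1 (0.968), Lama4 (0.959), a laminin chain of basement membranes, and Hoxb2 (0.943). The genes nearest to S100a1 were Colec11 (0.922), Rhoq (0.915) and Slc9a3r2 (0.907).

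No other S100 gene on the array passed the test. Of S100a2, S100a3, S100a5, S100a7a, S100a14, S100g and S100z, 5 were tested, 0 were called in either direction (limma, 3 at an unadjusted p under 0.05), and S100g and S100z fell to the filter on low values. S100a3 was the 1 among them found on all arrays. Its intensities ran from 143 to 199 in TAB and from 211 to 264 in sham, so TAB was lower on 5 of 5 days without overlap, as were 10.4% of the genes found on all arrays and 7.76% of all genes, while its log2 TAB effect of -0.51 (SE 0.15) did not pass (adjusted p = 0.0646, limma). S100a5, found on 1 TAB and 5 sham arrays, had raw intensities of 20 to 38 in TAB and 31 to 42 in sham and did not pass, and S100a2, S100a7a and S100a14 were found on 2, 0 and 0 arrays.

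Most S100 genes are neighbours: 9 of the 10 members lie on chromosome 3, where RefSeq lists 15 S100 genes, and S100b lies on chromosome 10. S100a4 and S100a6, both higher in TAB, are separated in this order of S100 genes by S100a5 alone, and S100a11 and S100a10 are adjacent at the far end. Between the outermost members lie 86 other annotated genes, many of them genes of skin barrier proteins, of which 42 were on the array and 29 were tested. Their median log2 TAB effect was -0.09, with 1 called higher and 2 called lower, beside 9.19% and 7.87% of all genes. Of these 29, 12 had a spot above background on every array and 6 had no such spot on any array. The median therefore includes values near background, and a difference between these genes and the S100 members was not tested. The gene called higher was Lor, found on 4 arrays. The genes called lower were Smcp (log2 effect -0.83, adjusted p = 0.0317, limma) and Sprr2i (-0.68, adjusted p = 0.0388). Sprr1a (2.59, adjusted p = 0.0946) and Crct1 (1.95, adjusted p = 0.0859), both named after their values were seen, had averages that did not pass and that describe no single day. Sprr1a had log2 ratios of 4.53, 4.53 and 4.08 on days 3, 5 and 7 and of 0.49 and -0.66 on days 14 and 28, and Crct1 had 3.51, 2.52 and 3.60 and then 0.03 and 0.07. Their early-minus-late differences did not pass either (adjusted p = 0.191 and 0.235, limma).

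**Figure D3:**
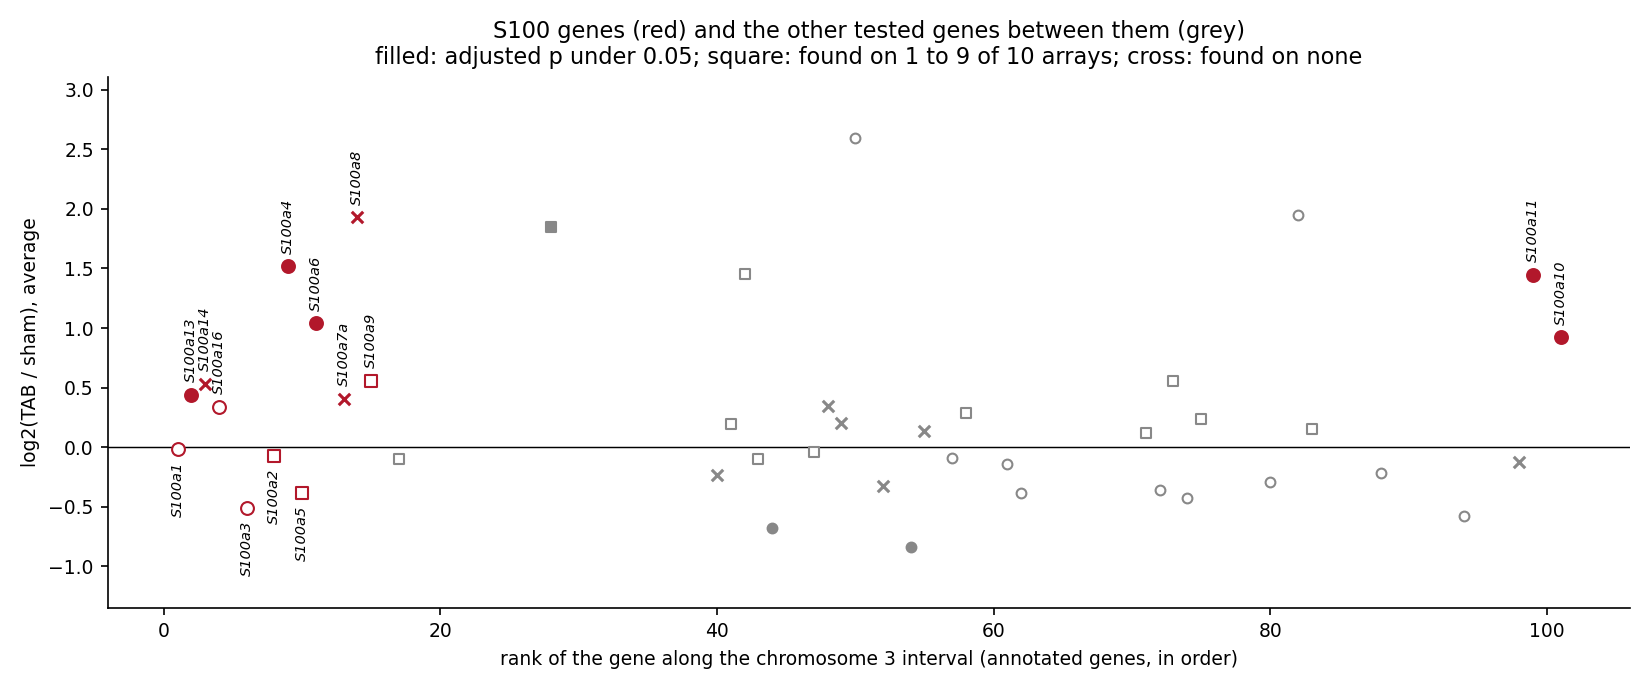
Average log2 ratio (TAB over sham, 5 days) of the tested S100 genes on chromosome 3 (red, named) and of the 29 other tested genes between them (grey), in the order in which the annotation lists them; the horizontal axis is a rank, not a distance. Filled points passed the limma test, squares were found on some but not all arrays and crosses on none; 3 of the grey points are filled, 1 above and 2 below 0, beside 5 filled red points, all above 0.

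The lists of S100 partners are given by their counts, to be read beside the 9.19% of all genes called higher and the 7.87% called lower. Among annexins and Ahnak, the intracellular partners of S100a10, S100a11 and S100a6, 5 genes were tested, 3 were higher in TAB and 0 lower, with a median log2 TAB effect of 0.63. Anxa2, the partner of S100a10, ran from 8553 to 20850.1 in TAB and from 3553 to 5280.4 in sham, a log2 effect of 1.63 (SE 0.28, adjusted p = 0.0226, limma). Anxa5 had 0.95 (adjusted p = 0.0223) and Anxa1, the partner of S100a11, 0.63 (adjusted p = 0.0394). Ahnak, a scaffold of the complex of S100a10 and Anxa2, had 0.27 (adjusted p = 0.522) on the probe that represents it and 0.11 on a brighter probe.

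Among receptors of released S100 proteins and their signalling partners, 8 genes were tested, of which 2 were higher and 1 lower, with a median of 0.22. Cd14 ran from 339 to 604 in TAB and from 159 to 266 in sham, a log2 effect of 1.08 (SE 0.12, adjusted p = 0.0121, limma). Ly96, the partner of Tlr4 in binding lipopolysaccharide, had 0.58 (adjusted p = 0.0272). Tlr4 itself, a receptor of S100a8 and S100a9, had 0.41 (adjusted p = 0.0834) and its adaptor Myd88 0.64 (adjusted p = 0.100). Cd36, a fatty acid carrier that also binds S100a8 and S100a9 with their load of arachidonic acid, was lower, with 627 to 1260.2 in TAB and 1594 to 1844 in sham and a log2 effect of -0.95 (SE 0.15, adjusted p = 0.0200); its other, dimmer probe had -0.28. Bsg had -0.29 (adjusted p = 0.185), and Ager, the receptor for advanced glycation end products, was found on no array.

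Of 4 calcium cycling genes, the targets named for S100a1, 0 were higher and 1 was lower, with a median log2 TAB effect of -0.36. Atp2a2, the calcium pump of the sarcoplasmic reticulum, had a log2 effect of -0.49 (SE 0.11, adjusted p = 0.0370, limma) on the probe that represents it, the dimmest of 3 with a mean intensity of 177. The brighter probes, with mean intensities of 27059.5 and 22085, had -0.42 and -0.41 (adjusted p = 0.0514 and 0.0446 in a limma fit over all probes, where the dimmest had 0.0413). With any 1 day left out the adjusted p of Atp2a2 was 0.0686 to 0.113 (limma). Ryr2, the calcium release channel, had -0.36 (adjusted p = 0.0835) and Pln, the inhibitor of the pump, -0.36 (adjusted p = 0.234). Of 11 other binding partners, 0 passed (limma, 4 at an unadjusted p under 0.05). Myh9, the non-muscle myosin bound by S100a4, was higher in all 5 TAB samples than in any sham sample, with a log2 effect of 0.69 (adjusted p = 0.0552), and Fgf1, exported with S100a13, was lower in all 5, with -0.39 (adjusted p = 0.0501).

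Of the marker lists of other cell types, those of macrophages and of fibroblasts had most of their tested genes called higher in TAB, and those of neutrophils, endothelial cells and red blood cells had 0 calls. Over all genes 9.19% were called higher and 7.87% lower, so few or 0 calls in lists this short, here and below, are near that share. Of 7 macrophage and monocyte markers tested, 6 were higher in TAB and 0 lower (median log2 TAB effect 1.26), among them Cx3cr1 (2.21) and Cd68 (2.01), and the summed intensity of the 6 found on all arrays ran from 2863 to 5903 in TAB and from 1846 to 2008 in sham. Of 8 fibroblast markers, 6 were higher and 0 lower (median 1.14), among them Col1a2 (3.49) and Postn (3.37), and the sum of 7 ran from 45338 to 73170 in TAB, a range above the 30553 to 34311 in sham. Dcn (0.26, adjusted p = 0.119, limma) and Tcf21 (0.24, adjusted p = 0.265) did not pass. Bright probes weigh most in a sum. Here Vim, Dcn and Postn had mean intensities of 23302, 20399 and 13592 in TAB, and Fap had 126. The macrophage and fibroblast sums therefore lay higher in all TAB samples, as S100a4, S100a6, S100a10, S100a11 and S100a13 did. So did the sum of 3 Schwann cell markers, 3699 to 5392 in TAB and 2160 to 2829 in sham, with Pmp22 its brightest probe. The part of these cell types in the S100 differences was not tested. Neutrophil markers, which bear on S100a8 and S100a9, gave 0 calls among 10 tested (limma, also 0 at an unadjusted p under 0.05, median 0.05, Lcn2 1.05 with adjusted p = 0.221, Ltf -0.12), with sums of 4 from 279 to 884 in TAB and 331 to 461.5 in sham, and Cxcr2, Mmp8, Camp and Elane were found on no array. The Lcn2 average describes no single day. Its log2 ratios were 1.69, 0.80 and 3.28 on days 3, 5 and 7, with day 7 called upward by the single-day rule. On days 14 and 28 they were -0.30 and -0.22. The early-minus-late difference of Lcn2 did not pass (adjusted p = 0.423, limma). Ltf stayed between -0.29 and 0.10 on single days. Csf3r was found on 3 TAB and 0 sham arrays, and Ngp on 1 TAB and 2 sham arrays.

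For S100b, 7 Schwann cell markers gave 1 call higher, Pmp22 (0.88), and 1 lower, Mbp, on a probe found on 0 TAB and 4 sham arrays (adjusted p = 0.0116, limma). The other Mbp probe, which was brighter and found on all 10 arrays, had 0.57 (adjusted p = 0.0794 in a limma fit over all probes), the opposite sign, and no direction is given for Mbp. Foxd3, Erbb3 and Gfap were found on no array. Of 5 adipocyte markers 1 was higher, Cfd (0.79), and 0 lower, with a median of -0.09 and Adipoq at -0.10 (adjusted p = 0.726, limma). For S100a1, 10 cardiomyocyte markers gave 0 calls higher and 1 lower, Atp2a2, with a median of -0.14 and Tnni3 at -0.44 (adjusted p = 0.0588); their sum ran from 249642 to 269556 in TAB and from 257050 to 282492 in sham, with overlap, and holds Myl2, which lay at the top of the scanner's range. Endothelial markers gave 0 calls among 7 (limma, 1 at an unadjusted p under 0.05, median 0.10), with Cdh5 at 0.34 and Kdr at 0.21. Red blood cell markers gave 0 calls among 4 (1 at an unadjusted p under 0.05, median 0.23), with Alas2 at 0.81 (adjusted p = 0.0537). The partner lists, the marker lists and the genes between the S100 genes held 25 called genes in all, and with day 3, 5, 7 or 14 left out they held 1, 4, 1 and 16.

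**Figure D4:**
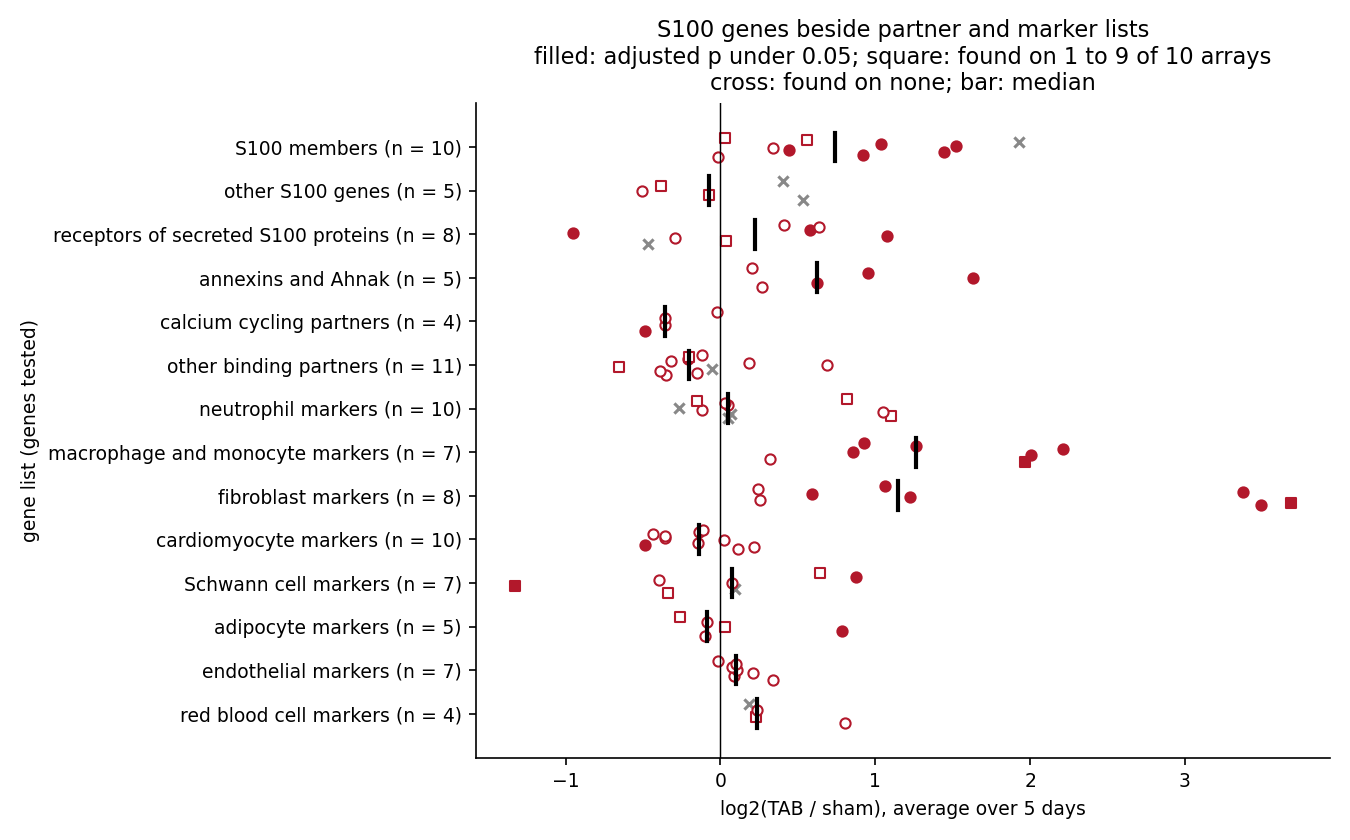
Average log2 ratio, TAB over sham, of every tested gene of the S100 members, the other S100 genes, their partner lists and the cell type marker lists (1 row each, with the number tested); the black bar is the median of the list. Filled points passed the limma test at an adjusted p under 0.05, squares were found on some but not all arrays and grey crosses on none. The S100 members, annexins, macrophage and fibroblast markers have medians of 0.74, 0.63, 1.26 and 1.14, and the calcium cycling and cardiomyocyte lists of -0.36 and -0.14.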

How the data were processed

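Left ventricle mRNA of 5 TAB and 5 sham samples, 1 per operation and day, was measured on a mouse whole genome array (Mouse OneArray, 26423 probes) with 1 colour. The authors deposited raw intensity per probe and sample, with background already subtracted by a method not given in the sources used here and with no scaling between arrays. The other deposited value is a flag whose negative code was read as a spot not found; 10 deposited columns of detection p-values were not used. The label of the TAB sample of day 14 also gives 15 days in 1 field; its title says 14. Precision is limited by the number of arrays.

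After scaling to a common median (raw medians 34 to 57), 19976 probes that reached 1 in all samples were kept. Quantile normalization then gave the arrays 1 distribution, the median at every rank, on the log2 scale. Each gene took its probe with the greatest summed size of log2 ratios (16113 genes). limma 3.58.1 (R 4.3.3, lmFit and eBayes) tested the TAB effect within days, with p-values adjusted by Benjamini-Hochberg and a threshold of 0.05. The day pairs the samples, as in the study's ratios; deviations of same-day samples from their group means correlated with r = 0.113, -0.0165, 0.00650, 0.00292 and 0.0140 on days 3, 5, 7, 14 and 28. On simulated data with 16113 genes, 200 of them changed, the TAB effect was recovered for 89% of genes changed by a log2 of 2 and 99% by 3, with 8 false calls, and the early-minus-late difference for 26% and 70%, with 8 false calls. Effects below a log2 of 2, as those of all S100 members were, were not simulated, so these rates do not apply to them.

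The members, partner lists and marker lists were chosen with earlier results of these data known. The naming rule took the members, other S100 genes, the partner lists, the 2 genes of each marker list with the largest absolute effect among those found on all arrays, and 3 like genes per member; not all are reported here, and Mbp was named after its values were seen. Alternatives were median scaling, quantile normalization within each operation, mean ranks, 50 added before log2, the dimmest tertile dropped, a floor of 1 in place of the filter, the brightest probe or the mean of probes, no day block, limma trend and robust, other day thresholds, each day left out and, chosen after seeing the data, only probes found on all arrays. Gene order and sequences came from RefSeq (GRCm38.p6); figures were drawn with Python 3.11.15 and matplotlib 3.10.9. The miRNA arrays were not analysed here.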

Additional observations from a re-analysis of the deposited data

Results flagged for a closer look

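In the sham samples, S100a10 had a normalized intensity of 2383 on day 28, away from 1652 to 1829 on the other days. On the log2 scale, 11.22 against 10.69 to 10.84, the gap was 0.7216 of the group's whole range, past Dixon's critical value for 5 samples. It was the 1 such sample among 20 groups tested (10 members in 2 operations), and chance gives about 1 in 20. The S100a10 value of the TAB sample of day 28, 2827, was above this sham value, and with day 28 left out the log2 TAB effect of S100a10 was 1.09.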

How the results depend on the processing

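The count of 5 S100 genes higher in TAB was 5 under 4 and 6, with S100a16 added, under 6 of 11 other settings; with probes below 1 set to 1 it was 1. With a day left out it ranged from 0 to 4. The number of all genes called, 2749, became 4469 with 50 added before log2, 677 with probes below 1 set to 1, 4194 with trend and robust, and 25 to 2602 with a day left out. All genes called for the early-minus-late difference, 0, became 10 with 50 added, 7 with the lowest tertile left out, 34 with trend and robust and 18 with only probes found on all arrays. Calls in the lists around the S100 genes, 25, ranged from 1 to 28 with a day left out; those between the S100 genes, 3, became 5 with 50 added, 5 with the lowest tertile left out and 5 with only probes found on all arrays, and 0 to 3 with a day left out. The 5 upward day calls became 13, 1, 8 and 11 with 50 added, probes below 1 set to 1, only probes found on all arrays and an absolute log2 ratio of at least 1. Of all calls, 53.9% were higher in TAB, but 67.6% with median scaling and 66.3% with normalization within each operation, which moved the median of all genes by under 0.1.

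Without the replicate block (no day block) all genes called for the early-minus-late difference were 5, and the pairing by day changed no call of an S100 gene found on all arrays.

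Signs turned for values near 0. The TAB effect of S100a1 was 0.029 with median scaling only and ranged from -0.094 to 0.058 with a day left out, and that of S100b ranged from -0.080 to 0.27. The early-minus-late difference with a day left out ranged from -0.61 to 0.68 for S100a9, from -0.079 to 0.22 for S100a16 and from -0.32 to 0.97 for S100b. The TAB effect of Adipoq ranged from -0.24 to 0.035 with a day left out. That of Mbp was 0.57 with the brightest probe and 0.57 with only probes found on all arrays, which take its other probe. The other causes were not tested. Spots near background, those of S100a8 and S100b and the dimmer ones of S100a9, are limited by signal.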
